A study of Rattus norvegicus with 8 samples.

Results

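The genes described here encode the ubiquitin-conjugating enzymes of the Ube2 family and the ubiquitin-specific proteases of the Usp family. They were chosen by name from the gene spots of a rat array: every probe whose gene name starts with Ube2, or is Usp followed by digits. This gave 76 genes, with 103 of the array's 30367 probes: 41 probes for 31 Ube2 genes and 62 probes for 45 Usp genes. The study hybridised RNA from castrated adult male Wistar rats, aged 120 days with a spread of 12 days, in 2 colours on 8 Agilent arrays. On each array, RNA of castrated rats given 1 subcutaneous dose of 4 mg/kg testosterone propionate, an injectable androgen ester, in 1 mL/kg corn oil was set against RNA of castrated controls. There were 4 arrays 8 h after the dose and 4 arrays 24 h after it, and the labels call the arrays of a time biological replicates. All rats, controls included, had lost the testes, so the comparison is of androgen replacement with castration alone. The series is about muscle atrophy, and the labels do not say which muscle was taken; no source used here says if controls were given oil, if animals were pooled or if the 2 times used the same control RNA.

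Ubiquitin is attached to proteins by a relay. An activating enzyme (E1) charges ubiquitin, a conjugating enzyme (E2, mostly the Ube2 family) carries it, and a ligase (E3) picks the substrate. K48-linked chains send a protein to the proteasome, while K63-linked chains serve in signalling and DNA repair. Deubiquitinating proteases, of which the Usp family is the largest group, take ubiquitin off again. In skeletal muscle this system breaks down contractile proteins, and the ligases atrogin-1 (Fbxo32) and MuRF1 (Trim63) are the usual markers of wasting.

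Of the 76 genes, 47 were measured, and 3 of these passed the test, all of them proteases and all at 24 h; 7.1% of all genes measured passed at that time and 0.0276% at 8 h. Usp10 and Usp25 rose and Usp3 fell, each by less than 1.5-fold. None of the 23 Ube2 genes measured passed at either time in this fit, and 8 Ube2 genes could not be measured. The sequences of these 3 genes come first because the results turn on them. The reporter probes are 60 bases long, and the first 30 bases of each are shown, 5′ to 3′ as the array files give them, with their place on rn4.
Usp10 (rn4 chr19:50244617-50244676): tagtgcttcctcggagtataaagttgtcac
Usp25, brighter probe (rn4 chr11:15907712-15907771): tcatgttaccaccgatctatttttgaattt
Usp25, other probe (rn4 chr11:15904915-15905959): atggagacttgatatcacattacagaagag
Usp3 (rn4 chr8:70824270-70824329): aggaacttgatgagacggagttgtatatgt
The other Usp25 probe spans 1045 bases of genome and so crosses a gap in its alignment, while each of the rest lies in 1 stretch of 60 bases. No annotation on rn4 was used here, so exons are not given.

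The promoters of the same 3 genes are shown because these members moved after an androgen was given. Each run is the 250 bases before the start of the gene in RefSeq (build GRCr8), 5′ to 3′ on the gene's strand, and capitals mark GGGCGG, the GC box, read on both strands.
Usp10 (GRCr8 chr19:64881547-64881796, plus strand): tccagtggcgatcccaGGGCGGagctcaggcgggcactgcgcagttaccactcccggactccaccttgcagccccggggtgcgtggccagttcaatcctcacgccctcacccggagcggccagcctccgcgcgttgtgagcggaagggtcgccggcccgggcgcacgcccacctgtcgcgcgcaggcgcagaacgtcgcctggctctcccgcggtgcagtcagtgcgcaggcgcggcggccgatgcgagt
Usp25 (GRCr8 chr11:29090403-29090652, plus strand): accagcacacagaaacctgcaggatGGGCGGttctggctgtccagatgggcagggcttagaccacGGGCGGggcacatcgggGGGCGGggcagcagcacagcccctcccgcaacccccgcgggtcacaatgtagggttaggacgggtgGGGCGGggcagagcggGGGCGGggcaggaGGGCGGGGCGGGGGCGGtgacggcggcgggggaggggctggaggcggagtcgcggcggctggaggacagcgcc
Usp3 (GRCr8 chr8:76049152-76049401, minus strand): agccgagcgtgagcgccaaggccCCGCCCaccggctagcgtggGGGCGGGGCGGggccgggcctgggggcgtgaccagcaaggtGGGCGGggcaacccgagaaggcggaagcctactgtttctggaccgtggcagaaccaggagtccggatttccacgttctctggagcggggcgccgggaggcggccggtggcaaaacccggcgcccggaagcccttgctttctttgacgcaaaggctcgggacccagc
The windows hold 1, 8 and 4 copies of GGGCGG or its reverse complement, overlapping copies included. That motif stands in 30.5% of all 33469 promoters of this length, and in 43 of the 62 that matched a member (18 of 26 Ube2 and 25 of 36 Usp). The same windows were searched on both strands for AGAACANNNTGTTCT, the palindrome that the androgen receptor binds, for its half-site AGAACA, which lies inside it, and for GTAAACA, the core that FoxO factors bind. None of these letters stood in the windows of Usp10, Usp25 or Usp3. The palindrome was in 0.012% of all promoters and in 0 of the 62, the half-site in 17.5% of all and in 7 of the 62, and GTAAACA in 3.21% of all and in 2 of the 62. Among members with a kept probe the half-site was found for Ube2a, Ube2l6 and Usp40 and GTAAACA for Usp47, and no kept member with either passed the threshold. A match is only a match of letters, and a window without one says nothing about binding elsewhere.

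Every value below is a log2 ratio taken inside an array, treated over control, so 1 stands for a doubling and a positive value for more transcript in treated rats. A probe was kept if it stood well above its background on at least 3 of 4 arrays in at least 1 of 4 RNA groups (treated or control, at either time), and the brightest kept probe represents a gene. A change was called where the adjusted p of limma's moderated test (Benjamini-Hochberg over all kept probes) was under 0.05. Kept probes covered 23 of the 31 Ube2 genes and 24 of the 45 Usp genes. Of those, 17 Ube2 and 16 Usp genes were well above background on all 8 arrays in both colours. The other 8 Ube2 and 21 Usp genes were not measured, and 5 and 14 of these were not well above background on any array. The first group includes Ube2c, the conjugating enzyme of the anaphase-promoting complex, and the second Usp5, which recycles free ubiquitin chains. Ube2l6, Ube2e2, Usp1 and Usp32 passed the filter but stayed dim on all arrays of at least 1 RNA group, so their fitted ratios are no measured change. Their values are given singly only as open points in the plot of 24 h estimates and, for Usp32, in the ranges over settings. These genes are still included in the counts of genes measured and in the family medians, unless said otherwise. They are also included in the counts of intervals and of genes on 1 side of 0 on all arrays. Following RefSeq, the probe named Ube2cbp belongs to Ube3d, a ligase, that of Ube2d4 to Ube2d2b, and 1 of the 2 probes named Usp43, neither of them kept, to Cfap52, no protease. The name rule also counted Usp6nl as a Usp gene, and neither of its 2 probes was kept. Membership rests on the name, not on known activity as a protease.

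Skeletal muscle markers were well measured: of 16 listed, 14 were on the array, 13 were measured and 0 were below background throughout. Of 8 markers of epithelium and male accessory glands, 6 were not well above background anywhere. The 8 h array of replicate 1 was the widest, with an SD of 0.437 over kept probes against 0.18 to 0.303 on the other arrays. The 8 h array of replicate 2 correlated with the other 8 h arrays at 0.274, -0.12 and -0.036 across probes. The 4 arrays of a time shared 1 slide; slide and time cannot be told apart, and arrays this few limit the precision. Any fall or rise in bulk tissue may be fewer cells of a type or less RNA in each, which cannot be told apart.

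Usp10 removes ubiquitin from p53 among other substrates and binds the stress granule protein G3BP. Its ratios at 24 h were 0.80, 0.64, 0.31 and 0.51 on the arrays of replicates 1 to 4, all above 0. At 8 h they were -0.03, 0.14, 0.04 and 0.49, so 1 array of that time lay within the 24 h range. The 24 h change was 0.56 ± 0.21 (SD, n = 4), a level 1.48-fold higher, with a 95% interval of 0.37 to 0.75 and an adjusted p of 0.0047. The 8 h change was 0.16 ± 0.23 (adjusted p = 0.357), and the difference between the times, 0.40, had an adjusted p of 0.132. Leaving out the 24 h array of replicate 1 brought the 24 h value to 0.52 with an adjusted p of 0.0518; it passed under all other settings tried, and its value over all settings ran from 0.52 to 0.95.

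Usp25 is a protease with a muscle-specific isoform. At 24 h its brighter probe read 0.62, 0.46, 0.07 and 0.43, above 0 on all arrays but close to it in replicate 3. At 8 h it read 0.42, 0.08, 0.07 and 0.40, also above 0 throughout. The 24 h change was 0.39 ± 0.23 (SD, n = 4), or 1.31-fold higher (adjusted p = 0.0411), and the 8 h change was 0.24 ± 0.19 (adjusted p = 0.28). The other probe gave 0.27 at 24 h (adjusted p = 0.0636) and 0.00 at 8 h. Leaving out 1 array ended the call for replicates 1, 2 and 4 of 24 h and replicate 4 of 8 h, with adjusted p between 0.0622 and 0.237, and it was lost with the scanner's processed signals (0.43, adjusted p = 0.141) and with median centring (0.68, adjusted p = 0.0583).

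Usp3 removes ubiquitin from histone H2A. Its 24 h ratios were -0.54, -0.27, -0.52 and -0.92, all below 0. At 8 h it read -1.09 in replicate 1, the widest array, against -0.09, -0.03 and 0.02 in the others. It fell by 0.56 ± 0.27 (SD, n = 4) at 24 h, a level 1.48-fold lower (adjusted p = 0.0424); the 8 h mean of -0.30 had an SD of 0.53. The call was lost when any 24 h array, or the 8 h array of replicate 3 or 4, was left out (adjusted p between 0.065 and 0.238), without the dye term (0.0868), with processed signals (-0.73, adjusted p = 0.0624), with no filter (0.0596) and with median centring (-0.26, adjusted p = 0.216).

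**Figure D1:**
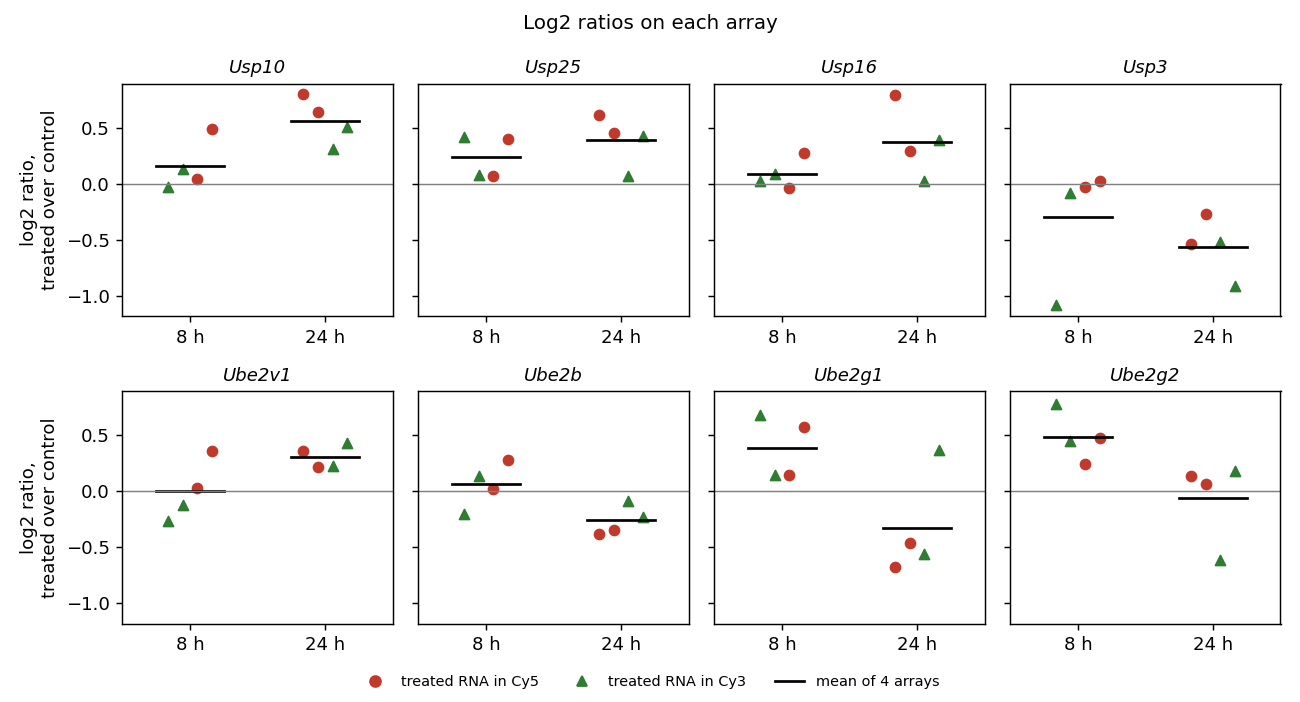
Log2 ratio of treated over control (vertical axis) on each array for 8 members, at 8 h and 24 h. Points are arrays, shaped and coloured by the dye of the treated RNA, and bars are means of 4 arrays. Usp10 and Usp25 lie above 0 and Usp3 below 0 on all 4 arrays at 24 h, and a single 8 h array of Usp3 lies at -1.09.

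In the Usp family, 3 of 24 genes, or 12.5%, passed at 24 h, beside 7.1% of the 10893 genes measured; 2 rose (4.17% of all genes did) and 1 fell (2.93%). In the Ube2 family 0 of 23 passed by limma. At an unadjusted p under 0.05 the counts were 3 Ube2 and 5 Usp genes, beside 22.3% of all genes, both smaller shares than that. At 8 h no member passed, where 0.0276% of all genes did, and 4 Ube2 and 2 Usp genes had an unadjusted p under 0.05, beside 17.3%. No member differed between the times either, where 1.3% of genes did, with 5 Ube2 and 3 Usp genes at an unadjusted p under 0.05, beside 16.4%. The counts at 24 h depended on single arrays, and so did those of all probes. With the 24 h array of replicate 1 left out 0 members passed, beside 208 of 12072 probes. With the 8 h array of replicate 1 left out 6 members did, beside 1324 of 12073 probes. Without the 8 h array of replicate 2, 3 of 47 members passed at 8 h, beside 1293 of 12068 probes. These were Ube2e3 at 0.34, Usp2 at -0.50 and Usp9x, with its brightest probe, at -0.39. In that setting 5 members passed at 24 h, beside 1181 of 12073 probes, and 4 between the times, beside 616 of 12068.

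**Figure D2:**
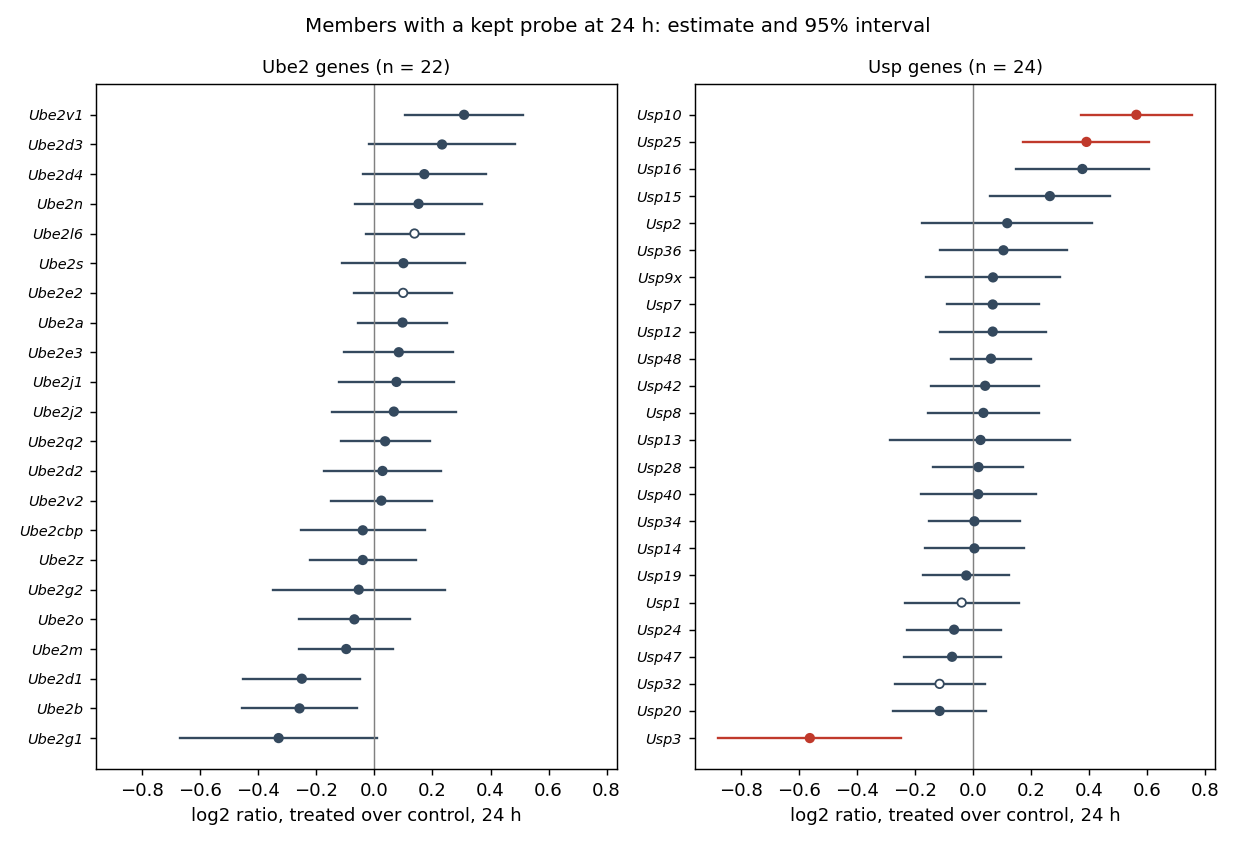
Estimated log2 ratio of treated over control at 24 h (horizontal axis) with its 95% interval, for 22 Ube2 and 24 Usp genes with a kept probe, in order of the estimate. Red marks the 3 genes past the threshold, Usp10, Usp25 and Usp3, and open points mark 4 genes not well above background in some RNA group.

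The spread between arrays gives each ratio an interval, which holds for this background correction and normalization. At 24 h the 95% interval lay within 1.5-fold either way for 22 of 23 Ube2 and 20 of 24 Usp genes, and at 8 h for 21 and 22. The median standard error was 0.089 for Ube2 and 0.085 for Usp genes. With processed signals some values lay outside these intervals, among them Usp19 (-0.57) and Usp28 (0.30) at 24 h and Usp25 (0.61) and Usp28 (0.43) at 8 h, so the intervals do not bound a change under other processing. Of the family medians, Ube2 stood at 0.062 at 8 h and 0.037 at 24 h, Usp at -0.009 and 0.031, and all genes at -0.011 and 0.000; with the 4 dim genes left out, the 24 h medians were 0.028 for Ube2 and 0.039 for Usp. On single arrays the Ube2 median ran from 0.012 to 0.202 at 8 h, above that of all genes on all 4 arrays. At 24 h it was 0.120 and 0.083 where the treated RNA carried Cy5 and -0.077 and -0.011 where it carried Cy3, so its sign followed the dye. The median of all genes did the same within a narrower range, at 0.016 and 0.023 against -0.015 and -0.014. The Usp medians ran from -0.048 to 0.068 at 8 h and from 0.005 to 0.063 at 24 h. Ube2 minus Usp, taken on each array, was 0.083 ± 0.138 at 8 h and -0.004 ± 0.070 at 24 h (mean ± SD, n = 4), so the families differed by less than the spread between arrays. With median centring of each array in place of loess, all probes rose by a median of 0.119 at 8 h and 0.153 at 24 h, and against that shift the Ube2 medians stood at 0.046 and 0.054 and the Usp medians at -0.023 and 0.013. With processed signals the 24 h medians were larger, 0.144 for Ube2 and 0.124 for Usp against -0.004 for all probes, and at 8 h they were 0.046 and 0.105 against -0.024.

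**Figure D3:**
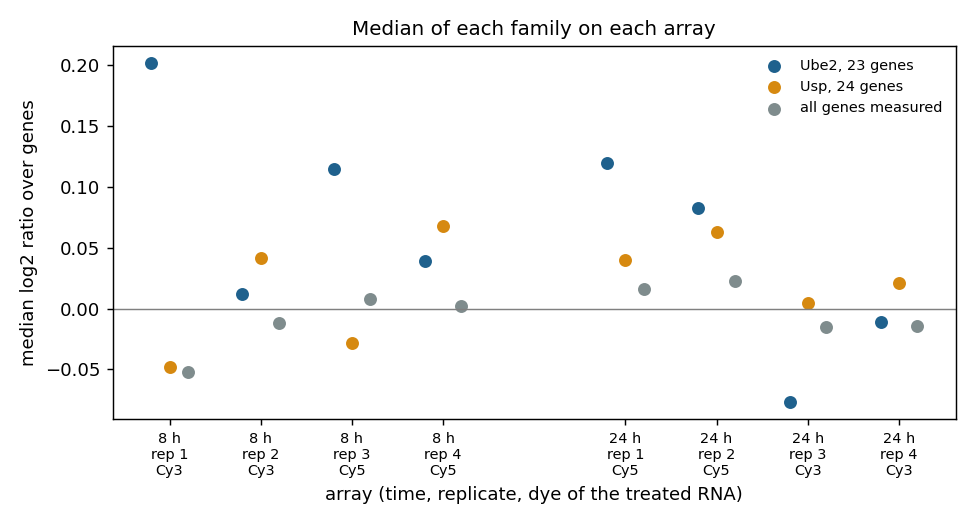
Median log2 ratio over genes (vertical axis) of the Ube2 family, the Usp family and all genes measured, on each of the 8 arrays, marked with the dye of the treated RNA (horizontal axis). At 24 h the Ube2 median and, within a narrower range, that of all genes are above 0 on both Cy5 arrays and below 0 on both Cy3 arrays.

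Among conjugating enzymes, the pair that makes K63-linked chains had the highest member at 24 h. Ube2v1 is the inactive partner with which Ube2n builds these chains. It read 0.36, 0.21, 0.22 and 0.43 at 24 h, above 0 on all arrays, and -0.27, -0.12, 0.03 and 0.36 at 8 h, on both sides of 0. The 24 h mean was 0.31 ± 0.11 (SD, n = 4; adjusted p = 0.0736), short of the threshold; with processed signals it was 0.15 (adjusted p = 0.555), and it passed with array weights (0.0422) or once replicate 1 of 8 h was left out (0.0443), also together with replicate 2 (0.0206). Its other 4 kept probes gave smaller positive means, between 0.07 and 0.16. The probe named Ube2n had a mean of 0.15 ± 0.28 (adjusted p = 0.423), with replicate 3 at 0.53 and replicate 2 at -0.12. That probe is placed on rn4 chromosome 1, and its identity as Ube2n rests on the array's annotation alone. The related Ube2v2 stood at 0.02.

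Ube2b and Ube2a are the Rad6-type enzymes, which ubiquitinate histone H2B and serve ligases that read protein N-termini; Ube2b is an E2 long followed in muscle wasting. At 24 h Ube2b read -0.38, -0.34, -0.08 and -0.23, below 0 on every array, with a mean of -0.26 ± 0.13 (SD, n = 4; adjusted p = 0.121). At 8 h its arrays lay between -0.20 and 0.28. With array weights it passed (-0.28, adjusted p = 0.032), and with median centring it stood at 0.15, close to the shift of all probes. Ube2a had means of 0.18 ± 0.12 at 8 h (adjusted p = 0.273) and 0.10 ± 0.16 at 24 h.

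The Ube2d enzymes start chains with many ligases and work with MuRF1 in the test tube. They did not share a direction at 24 h. Ube2d1 read -0.48, -0.14, -0.08 and -0.31 (mean -0.25 ± 0.18, adjusted p = 0.137), below 0 throughout. Ube2d3 read 0.39, 0.12, -0.13 and 0.55 (mean 0.23 ± 0.30, adjusted p = 0.268), and Ube2d2 had a mean of 0.03 ± 0.15. The Ube2d4 probe read 0.55 and 0.44 on the arrays with Cy5-labelled treated RNA, against -0.12 and -0.18 on the dye-swapped arrays, so its values parted by dye. Ube2e3, a close relative, was above 0 on all arrays at 8 h, at 0.50, 0.07, 0.12 and 0.30 (mean 0.25 ± 0.20, adjusted p = 0.27).

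Ube2g1, which extends K48-linked chains, had the largest difference between the times of any member. It read 0.69, 0.15, 0.15 and 0.57 at 8 h and -0.67, -0.46, -0.56 and 0.37 at 24 h. Replicate 4 at 24 h stood apart from the other 3 and overlapped the 8 h arrays. The means were 0.39 ± 0.28 (adjusted p = 0.277) and -0.33 ± 0.47 (adjusted p = 0.241), and the difference between the times was -0.72 (95% interval -1.20 to -0.24, adjusted p = 0.132). Without that array the difference passed, and the 24 h mean became -0.56 (adjusted p = 0.0489). Ube2g2, an enzyme of degradation at the endoplasmic reticulum, read 0.78, 0.45, 0.24 and 0.47 at 8 h, the highest mean of either family at that time (0.49 ± 0.22, adjusted p = 0.27). At 24 h it read 0.14, 0.07, -0.61 and 0.18, all below its 8 h arrays; it was the only measured member whose 2 times did not overlap, which 4.13% of all genes did in that direction and 5.2% in the other. The membrane-anchored Ube2j1 and Ube2j2 of the same route had 24 h means of 0.08 and 0.07. Ube2j1 passed the filter only through treated RNA at 24 h, so its value at that time is no measured change.

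The remaining conjugating enzymes had means near 0. Ube2m, the carrier of NEDD8, stood at -0.10 at 24 h and Ube2s, which lengthens chains in mitosis, at 0.10. Ube2o and Ube2q2 had means of -0.07 and 0.04 at 24 h. Their 8 h means were -0.06 and -0.09, the lowest of the family after Ube2cbp at -0.16. At 24 h both parted by dye. Ube2o read 0.20 and 0.14 with Cy5-labelled treated RNA, against -0.41 and -0.21 on the dye-swapped arrays. Ube2q2 read 0.19 and 0.13 against -0.14 and -0.02. On all 4 arrays at 24 h, 3 Ube2 genes were higher and 2 lower, beside 15.3% and 13.8% of all genes. The higher ones were Ube2v1, Ube2s and the dim Ube2l6. Ube2l6 was kept only through treated RNA at 24 h, so its place in this count follows from the filter and is no result. At 8 h the counts were 4 and 1, beside 9.43% and 12%.

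Among proteases of chromatin and p53 that were not called, Usp16 had the value nearest to the threshold. Usp16, like Usp3, acts on histone H2A. It read 0.80, 0.29, 0.02 and 0.39 at 24 h, above 0 on all arrays and near it in replicate 3. The mean was 0.38 ± 0.32 (SD, n = 4; adjusted p = 0.0577), opposite in sign to that of Usp3. It passed with the smaller background offset of 16 (0.51, adjusted p = 0.0345), with array weights (0.37, adjusted p = 0.029) and without the 8 h array of replicate 1 or 2; it was 0.25 (adjusted p = 0.304) without the 24 h array of replicate 1 and did not pass with processed signals or median centring. Usp7, which stabilises the ligase Mdm2, had means of -0.08 ± 0.12 and 0.07 ± 0.09 at 8 h and 24 h.

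Of 5 proteases listed for muscle wasting or a muscle isoform (Usp1, Usp2, Usp19, Usp25 and Usp28), 1 passed at 24 h, beside 7.1% of all genes: Usp25, listed for its isoform. Usp19, induced in wasting muscle in the literature, stood at -0.05 ± 0.10 and -0.02 ± 0.06, but its signal was weak: at 24 h its treated and control RNA were each well above background on 1 of 4 arrays. With processed signals its means were -0.43 and -0.57. Usp14, which trims chains at the proteasome, stood at 0.11 ± 0.15 and 0.01 ± 0.11. Usp13 stood at 0.128 ± 0.407 and 0.026 ± 0.305. At 8 h Usp13 read 0.71 in replicate 1, the widest array, and at 24 h its arrays lay on both sides of 0. Usp28, a relative of Usp25, was above 0 on all arrays at 8 h, at 0.28, 0.08, 0.10 and 0.16 (mean 0.15 ± 0.09, adjusted p = 0.298), and at 0.02 ± 0.14 at 24 h. Usp2, a protease with a daily rhythm in many tissues, had the lowest 8 h mean of the family, -0.32 ± 0.55; it read -1.12 in replicate 1 and -0.14, -0.15 and 0.13 in the others. At 24 h Usp2 read 0.39 and 0.29 on the arrays with Cy5-labelled treated RNA, against -0.11 and -0.09 on the dye-swapped arrays.

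Other proteases varied between arrays or probes. Usp15, which acts on receptors of the TGF-β pathway, read 0.36, 0.31, 0.11 and 0.28 at 24 h with its brighter probe (mean 0.27 ± 0.11, adjusted p = 0.124) and had a mean of -0.04 ± 0.15 with the other. Both probes are named here because they disagree; the brighter lies at rn4 chr7:62932547-62932606 and the other at chr7:62871453-62871512.
Usp15, brighter probe, first 30 bases: aagtatatgagtaacacatttgagccactg
Usp15, other probe, first 30 bases: agtgacgaagacagcaatgataatgacaat
Usp9x, of the endosome, had an 8 h mean of -0.22 ± 0.28 with replicate 2 at 0.16 and the other arrays between -0.52 and -0.27. That mean is of the brightest of its 3 probes, which gave -0.22, 0.14 and -0.04 at 8 h and so did not share a direction. At 24 h they gave 0.07, -0.07 and -0.08. Usp20 had means of -0.15 ± 0.17 and -0.12 ± 0.13, among the lowest of the family at both times. At 24 h, 5 Usp genes were higher on all 4 arrays and 1 was lower. At 8 h it was 3 and 1, and the shares of all genes at both times are those given for the Ube2 family. Of the 3 higher at 8 h, Usp34 was kept only through treated RNA, so its place in this count follows in part from the filter.

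In the rest of the ubiquitin system 9 of the 50 listed genes measured (18%) passed at 24 h, beside 7.1% of all genes, 6 of them ligases; with median centring 1 of the lists' genes passed. Of 17 muscle ubiquitin ligases measured, 6 fell, beside 2.93% of all genes, and 0 rose, with a list median of -0.146. Fbxo32 read -2.40, -2.05, -3.16 and -2.30 on the arrays of 24 h, lower than any ratio of the 2 families. It fell by 2.48 (SD 0.48, adjusted p = 0.00014), and at 8 h it read -1.17, -0.04, -1.04 and -0.70 (adjusted p = 0.27); the difference between its times had an adjusted p of 0.0207. Trim63 read -0.71, -0.50, -1.05 and -0.46 and fell by 0.68. The other ligases that fell were Asb2 (-1.46), Ube4a (-0.45), a chain-extending ligase, Fbxo31 (-0.52 ± 0.52) and Fbxo40 (-0.36 ± 0.21). Fbxo31 had a value on 3 of 4 arrays at 8 h. At 24 h it read -0.16 and -0.05 with Cy5-labelled treated RNA, against -1.20 and -0.64 on the dye-swapped arrays. Fbxo40 read -0.14 and -0.22 against -0.51 and -0.56, so both genes were below 0 throughout but parted by dye. Ubr2, the ligase that works with Ube2b, stood at -0.25 (adjusted p = 0.0905).

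Of the other lists, 4 genes encode ubiquitin itself, and of these Ubb fell at 24 h, at -0.23, -0.47, -1.16 and -0.40 (mean -0.57 ± 0.41, adjusted p = 0.045). Of 6 activating enzymes measured 0 passed by limma, with 1 at an unadjusted p under 0.05. Of 5 conjugating enzymes and relatives outside the Ube2 name, Ufc1, the carrier of the modifier UFM1, rose by 0.37 ± 0.11 (adjusted p = 0.0317). Of 18 proteases of other deubiquitinase families, Otud7b, a protease that cuts K11-linked chains, fell by 0.37 ± 0.13 (adjusted p = 0.0168), with arrays at -0.54, -0.26, -0.29 and -0.36. None of these lists had a member past the threshold at 8 h.

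Markers of some other cell types moved between the same arrays, and their part in the results above was not tested. Of 14 macrophage markers on the array 11 were measured and 2 were below background throughout; their median over genes ran from -0.737 to -0.17 on the 8 h arrays and from 0.18 to 0.525 on the 24 h arrays, and 4 of the 11 rose at 24 h. Fibroblast and matrix markers, 9 of 11 measured, ran from -0.311 to 0.052 and from 0.236 to 0.335, and 4 rose at 24 h. Adipocyte markers, 5 of 8 measured and 2 below background throughout, ran from -0.214 to 0.204 and from 0.01 to 0.535, and Fabp4 rose at 24 h. The 2 erythrocyte markers measured, of 4 on the array, ran from -2.196 to 0.326 and from 0.05 to 1.851. Endothelial markers, 5 of 9 measured and 3 below background throughout, ran from -0.717 to 0.103 and from -0.043 to 0.071, and Kdr rose at 24 h. Of 6 smooth muscle markers and 6 Schwann cell and nerve markers measured, 0 passed at either time. Muscle markers ran from -0.282 to 0.388 at 8 h and from -0.578 to -0.195 at 24 h; Acta1 and Actn3 fell and Myh1 rose.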

How the data were processed

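RNA of treated and control castrated rats was compared on 8 2-colour arrays, grouped by time from the labels. Per the submitters' processing notes, spots were quantified in Agilent Feature Extraction 9.5.3.1. The deposited mean signals and median backgrounds are linear intensities with no normalization, per the file headers; the processed signals are intensities after the scanner software's background and dye correction. The authors' deposited log2 value table equals the processed log2 ratios, treated over control, within 1.35e-05 per spot; no source used here states its centring or direction, and its column medians ran from -0.144 to 0.0896. The deposited LogRatio column, log10 of red over green per the file headers, was not used. Here the mean signals were corrected by normexp (offset 50) and loess (limma 3.58.1, R 4.3.3); control spots were dropped, as were outlier-flagged spots (731 to 927 of 42877 on an array), and spots of a probe averaged. The filter kept 12074 of 30367 probes. The linear model had a coefficient for each time and a dye term per probe, was fitted to all 8 arrays, was checked on simulated data, and gave two-sided moderated tests; SDs are over 4 arrays. If arrays shared extracts, p-values would reflect technical spread. RefSeq symbols (GRCr8) matched 84 of the 103 member probes. Members and lists were chosen with earlier results of these data known. Named genes were all members past the threshold, the 3 highest and 3 lowest of each family at each time, a fixed set of members, Fbxo32, Trim63 and passing genes of the listed ubiquitin system; others, such as Usp13, Usp15, Ube2m, Ube2s, Ube2v2, Ube2j1, Ube2j2 and Ubr2, were named after their values were seen. A single measured Ube2 gene is counted but not reported here by value. Alternatives were 18 planned settings and 1 added after seeing the data.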

Additional observations from a re-analysis of the deposited data

Results flagged for a closer look

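Groups of 4 arrays were formed by the named members and by the family medians at each time, 56 in all. In 5 of them 1 array lay so far from the rest that its gap, as a share of the group's range, exceeded Dixon's 95% critical value for 4 values. Chance gives about 1 in 20. At 8 h these were Ube2d2, where replicate 4 read -0.27 (gap 0.846 of the range), Usp14, where replicate 2 read -0.11 (0.888), and Usp3, where replicate 1 read -1.09 (0.9). At 24 h they were Ube2e3, where replicate 4 read 0.28 (0.832), and Ube2g2, where replicate 3 read -0.61 (0.857). The 3 values called at 24 h were in none of these groups.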

How the results depend on the processing

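The count of 3 members called at 24 h, beside 835 of 12073 probes, became 1 with the processed signals and with the authors' value table, beside 575 probes. It became 7 with array weights, beside 1618 probes. It was also 7, beside 1971 probes, when both the 8 h arrays of replicates 1 and 2 were left out, a setting chosen after seeing the data. Leaving out 1 array gave 0 to 6 members at 24 h, where 208 to 1324 probes passed. It gave 0 to 3 at 8 h, where 0 to 1293 probes passed, and 0 to 4 between the times, where 33 to 616 did. With median centring 3 members passed (Ube2d4, Usp10 and Usp15), beside 437 probes, and 95.7% of all calls were higher, against 60% with loess. The 9 other ubiquitin-system genes called became 1 with median centring, 14 without the 8 h arrays of replicates 1 and 2, and 2 to 11 with 1 array left out. With the processed signals or the authors' table the family medians were 0.105 for Usp at 8 h and 0.144 for Ube2 and 0.124 for Usp at 24 h, where the median of all probes was -0.004. With median centring they were 0.165 and 0.207 for Ube2 and 0.096 and 0.166 for Usp at 8 h and 24 h. Leaving out 1 array gave Usp medians at 24 h from 0.023 to 0.059.

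Signs turned only for values that did not pass in the fit reported, at that gene and time. With processed signals or the authors' table these were Ube2d2 (-0.009), Ube2v1 (-0.027) and Usp32 (0.065) at 8 h and Usp14 (-0.070) at 24 h; with offset 16, Ube2v1 at 8 h (-0.027); with array weights, Ube2d2 (-0.037) and Ube2n (0.028) at 8 h and Usp14 (-0.015) at 24 h; and, with those 2 arrays left out, Ube2d2 (-0.184), Ube2n (0.172) and Usp16 (-0.049) at 8 h. With median centring, which moved all probes up, they were Ube2cbp (0.125), Ube2d4 (0.239), Ube2n (0.101), Ube2o (0.148), Ube2q2 (0.077), Usp2 (0.081), Usp20 (0.064), Usp3 (0.013), Usp7 (0.021) and Usp9x (0.007) at 8 h, and Ube2b (0.148), Ube2cbp (0.223), Ube2d1 (0.014), Ube2g1 (0.024), Ube2g2 (0.318), Ube2o (0.180) and Usp20 (0.072) at 24 h. Leaving out 1 array moved these across 0 at 8 h: Ube2d1 (-0.007 to 0.163), Ube2d2 (-0.028 to 0.153), Ube2d4 (-0.133 to 0.090), Ube2o (-0.170 to 0.015), Usp32 (-0.064 to 0.004), Ube2b (-0.029 to 0.169) and Ube2v1 (-0.108 to 0.073). At 24 h it moved Ube2d2 (-0.027 to 0.082), Ube2q2 (-0.001 to 0.086), Usp14 (-0.027 to 0.073), Ube2g2 (-0.155 to 0.162), Usp19 (-0.049 to 0.007) and Usp28 (-0.025 to 0.063). The causes were not tested.

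Same-numbered arrays of the 2 times deviated from their group means with correlations of -0.257, 0.174, -0.165 and -0.071, so the numbers were not taken to pair samples. With the replicate number as a block, 4 members passed at 24 h, Usp16 being added, beside 931 of 12073 probes. At 8 h and between the times 0 members did, beside 8 and 342 of 12069 probes. Arrays limit what is seen here by signal over background: 29 of 76 genes gave no value.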
